A study of Mus musculus with 2 samples.

Results

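The nuclear genes that encode subunits of the mitochondrial respiratory chain were described in embryonic mouse liver. Members were the protein-coding genes whose GENCODE M21 symbol begins with Ndufa, Ndufb, Ndufc, Ndufs or Ndufv and a digit, is Sdha, Sdhb, Sdhc or Sdhd, or begins with Uqcr, with Cox and a digit from 4 to 8, or with Atp5. This gave 85 genes with 84 symbols among 22028 protein-coding genes, 37 of complex I, 4 of complex II, 8 of complex III, 18 of complex IV and 18 of complex V. The rule uses the symbol and gene type and no measured value. The study held 1 group of 2 polyA RNA libraries from liver of healthy B6NCrl embryos at 12.5 days, with no treatment or altered allele named in the labels. Livers of both sexes were pooled, 120 embryos for replicate 1 and 88 for replicate 2, and 10 ng of RNA with ERCC spike-in RNA was used for each library. With a single group there was no contrast between conditions and no test. Each value below is given per library or as mean ± SD (n = 2), and the SD measures the spread between these 2 pools only.

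Complexes I to IV pass electrons from NADH and succinate to oxygen in the inner mitochondrial membrane, and complexes I, III and IV pump protons as they do so. Complex V, the ATP synthase, uses the returning protons to make ATP. Complex II is encoded wholly in the nucleus, whereas the other complexes combine nuclear subunits with a few subunits encoded in mitochondrial DNA. Several nuclear subunits of complex IV exist as paralogs, of which one is made in most tissues and another mainly in heart and skeletal muscle, lung or testis.

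Expected counts, the reads that the authors' quantification assigned to each entry, summed to 38293265 in replicate 1 and 35399872 in replicate 2. The liver label was checked against markers. The 5 hepatoblast markers summed to 10213 and 9964 TPM (a level per effective length, scaled so that each library has the same total), led by Afp at 5157 ± 131 TPM. The 5 erythroid markers summed to 2143 and 2179 TPM, led by Slc4a1 at 790 ± 33.2 TPM. Markers of both lineages were high, and in such whole tissue fewer cells of a type and less RNA per cell cannot be told apart. The 5 cardiac markers summed to 28.9 and 38.9 TPM, the 5 skeletal muscle markers to 34.9 and 44.5 TPM, and the 4 male germ line markers to 0.620 and 0.470 TPM.

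The subunit genes were among the higher transcripts of the liver. Of the 85 members, 81 reached a mean of 1 TPM, against 54.3% of all protein-coding genes. The count was 78 at 10 TPM or more, against 32.1%, and 73 at 100 TPM or more, against 5.38%. Among the 500 protein-coding genes with the highest mean TPM, 48 were members. The median over members was 244 ± 0.474 TPM, and the median of the 11957 protein-coding genes at 1 TPM or more was 14.1 TPM. Members summed to 25253 TPM in replicate 1 and 24622 TPM in replicate 2, which is 2.49% ± 0.045 of all TPM, spike-ins included. The 4 members under 1 TPM were Cox7b2, Cox8b, Cox8c and a second Ensembl gene named Atp5o. That second Atp5o is a long locus on the minus strand at chr16:91684398-91926982 (mm10) that reads through into the neighbouring gene, and it held 0 counts in both libraries.

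**Figure D1:**
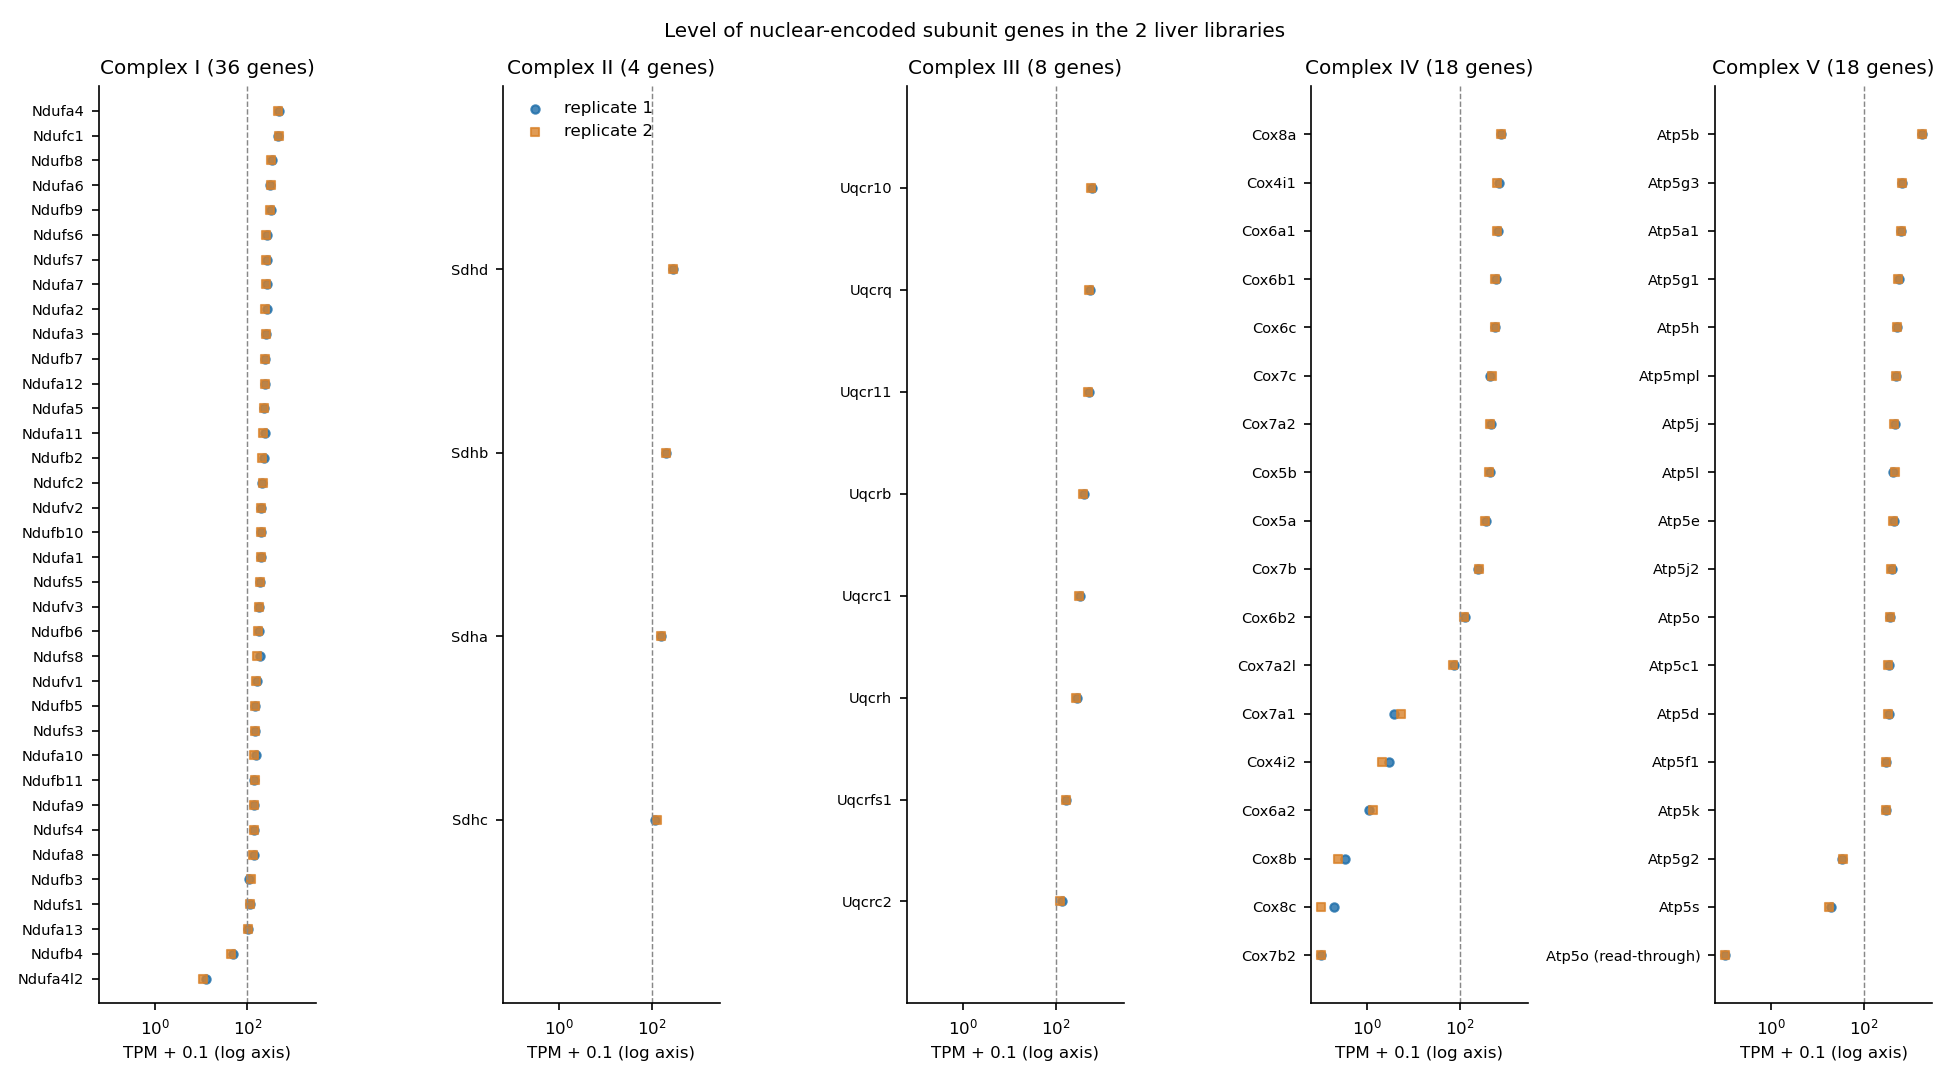
Level of 84 of the 85 genes (1 gene of complex I is not drawn), one panel per complex, as TPM + 0.1 on a log axis, with replicate 1 as circles, replicate 2 as squares and a dashed line at 100 TPM. Complexes II and III lie wholly to the right of the line, while complex IV has 7 genes to its left, among them Cox4i2, Cox6a2, Cox7a1, Cox7b2, Cox8b and Cox8c.

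The complexes differed in level. The median of complex V was 425 TPM in replicate 1 and 407 TPM in replicate 2, that of complex III was 374 and 358 TPM, and that of complex IV was 310 and 301 TPM. Complexes I and II were lower, with medians of 197.08 and 195.07 TPM and of 185 and 181 TPM. In both libraries the order was V, III, IV, I, II. Without the members under 1 TPM, however, complex IV came first with a median of 446 TPM, ahead of complex V at 434 TPM and complex III at 366 TPM. Over all members, no neighbouring complexes in the order overlapped between libraries, yet the medians of I and II differed by only 0.933-fold. The median of complex V was 2.12 ± 0.050 times that of complex I (n = 2). By sum, complex V took 32.8% of the members' TPM, complex I 30.1%, complex IV 22.05%, complex III 11.9% and complex II 3.13%. Genes of different complexes are not replicates of one another, and these ratios carry no test.

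Complex I takes electrons from NADH and is the largest of the complexes. Of its 37 genes, 35 lay between 102 and 474 TPM. The highest were Ndufa4 at 485 and 463 TPM, Ndufc1 at 452 and 468 TPM and Ndufb8 at 332 and 319 TPM. Later structural work places Ndufa4 in complex IV, and it is kept here under its symbol. The lowest were Ndufa4l2, a paralog of Ndufa4, at 12.4 and 10.8 TPM and Ndufb4, a subunit of the membrane arm, at 47.5 and 43.8 TPM. The 7 nuclear core subunits, which carry the flavin and iron-sulphur centres or sit beside them, ran from Ndufs1, the largest of them, at 112 and 114 TPM to Ndufs7 at 262 and 247 TPM. Ndufv1, which binds NADH and the flavin, stood at 157 and 156 TPM and its partner Ndufv2 at 200.3 and 195.6 TPM. Ndufs3, of the arm that hands electrons to ubiquinone, stood at 149 and 143 TPM, and Ndufs8, an iron-sulphur protein, at 183 and 164 TPM. Their median was 156 ± 1.17 TPM, below the 205 ± 0.400 TPM of the 28 other subunits without Ndufa4 and Ndufa4l2. The core genes were also longer, with a median effective length of 956 bases against 520. Across the 37 genes TPM fell with effective length, with a Spearman correlation of -0.66. That value is a description across genes of the same 2 libraries, and the part of length in these levels was not tested.

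Complex II, succinate dehydrogenase, also works in the citric acid cycle. Sdhd, a membrane anchor, was highest at 295 and 288 TPM. Sdhb, the iron-sulphur subunit, stood at 208 and 201 TPM, and Sdha, the flavoprotein subunit, at 163 and 161 TPM. Sdhc, the other anchor, was lowest at 117 and 130 TPM. Sdhd thus exceeded Sdhc 2.51-fold in replicate 1 and 2.22-fold in replicate 2, with 95% exact intervals of 2.42 to 2.61 and 2.14 to 2.31 that cover counting error only. The 4 genes kept 1 order in both libraries and did not overlap.

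Complex III passes electrons to cytochrome c. Its 3 highest genes encode small subunits without a redox centre, Uqcr10 at 598 and 584 TPM, Uqcrq at 557 and 536 TPM and Uqcr11 at 527 and 497 TPM. The lowest were Uqcrc2, a core protein, at 134 and 125 TPM and Uqcrfs1, the Rieske iron-sulphur protein, at 170 and 167 TPM. The other core protein, Uqcrc1, was 2.54 ± 0.020 times Uqcrc2. Uqcrb, another small subunit, stood at 409 and 395 TPM and Uqcrh, the acidic hinge protein, at 288 and 272 TPM. The 3 large members (Uqcrc1, Uqcrc2 and Uqcrfs1) had a median of 168 ± 1.77 TPM and the 5 small ones a median of 512 ± 21.3 TPM. TPM again fell with effective length, with a Spearman correlation of -0.90 over the 8 genes.

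Complex V split into a head that makes ATP, a ring of c subunits that turns in the membrane, and the stalk and other parts. Atp5b, the catalytic beta subunit of the head, was the highest of all members at 1829 and 1781 TPM. Atp5a1, the alpha subunit, stood at 643 and 636 TPM. In the enzyme alpha and beta alternate in equal numbers, whereas the transcript of Atp5b exceeded that of Atp5a1 2.82 ± 0.032 times. The 5 head subunits (Atp5a1, Atp5b, Atp5c1, Atp5d and Atp5e) had a median of 443 ± 19.1 TPM. The central stalk subunits Atp5c1, Atp5d and Atp5e stood close to one another at 356 and 342, 352 and 329, and 457 and 430 TPM. The 8 subunits outside head and ring had a median of 423 ± 2.72 TPM and ran from Atp5k at 299 ± 2.08 TPM to Atp5h at 525 ± 2.08 TPM. In contrast to complexes I and III, TPM showed a Spearman correlation with effective length of -0.020 over 17 genes. The value was -0.14 over the 15 genes of complex IV at 1 TPM or more and 0.4 over the 4 genes of complex II. Atp5s, named for the family but not a subunit of the purified enzyme, stood at 19.9 and 17.3 TPM.

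The c ring is encoded by 3 genes whose mature proteins are the same and whose import signals differ. Atp5g3 stood at 677.10 and 677.05 TPM, Atp5g1 at 591 and 549 TPM and Atp5g2 at 33.2 and 35.3 TPM. Atp5g3 and Atp5g1 lay close together, with Atp5g3 1.14-fold and 1.23-fold the higher. Atp5g2 lay 19.8 ± 0.830 times below Atp5g3. The Atp5g2 value rests on a division of reads with a copy, described further on.

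Complex IV, cytochrome c oxidase, held most of the paralog pairs and, among genes at 1 TPM or more, the widest range. The highest were Cox8a at 785 and 765 TPM, Cox4i1 at 697 and 643 TPM and Cox6a1 at 683 and 654 TPM. Cox5a, Cox5b, Cox6c and Cox7c have no paralog among the members and ranged from 359 ± 16.5 TPM for Cox5a to 575 ± 7.47 TPM for Cox6c. Cox7a2l, described elsewhere as joining complexes III and IV into supercomplexes, is not a subunit of the free enzyme in the strict sense. It stood at 76.3 and 72.9 TPM, and whether its product joins them in this strain was not tested.

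Apart from Cox6b2, the minor paralogs of complex IV and Ndufa4l2 were far below their partners, at no more than 2.50% of the pair's summed TPM. Cox4i2, known as the lung form and as induced by low oxygen, stood at 2.88 and 2.05 TPM from 59 and 39 counts. Cox4i1 exceeded it 242-fold in replicate 1 (95% exact interval 188 to 319) and 314-fold in replicate 2 (229 to 441). The 2 intervals overlap, so the libraries cannot be told apart on this ratio.

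Cox6a2, the heart and muscle form, stood at 1.00 and 1.25 TPM from 19 and 22 counts. Cox6a1, called the liver form, was 683-fold and 523-fold higher. Cox7a1, the heart and muscle form, stood at 3.69 and 5.17 TPM from 36 and 46 counts. Its partner Cox7a2, at 480 and 450 TPM, was 130-fold and 87.0-fold higher. Cox6a2 and Cox7a1 were thus both a little higher in replicate 2, but their counting intervals overlapped between libraries (11.4 to 29.7 against 13.8 to 33.3 counts, and 25.2 to 49.8 against 33.7 to 61.4 counts). Of the 5 cardiac markers, Actc1 (7.69 and 17.1 TPM), Tnnt2 (1.28 and 2.79 TPM) and Nkx2-5 (0.110 and 0.160 TPM) were also higher in replicate 2. The other cardiac markers were lower there, Myl7 at 18.8 and 18.3 TPM and Myh6 at 0.980 and 0.640 TPM. The 5 skeletal muscle markers were all higher in replicate 2, with Mylpf at 31.5 and 34.6 TPM and Myog at 0.900 and 4.10 TPM. The part of muscle or heart RNA in the 2 heart and muscle forms was not tested.

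Cox8b, the heart and muscle form of Cox8, had 2 counts in replicate 1 and 1 in replicate 2, or 0.230 and 0.130 TPM. Cox8a exceeded it 3413-fold in replicate 1, with an exact interval of 926 to 27633, and 5881-fold in replicate 2, with an interval of 1083 to 238405. Cox8c, the testis form, had 1 count in replicate 1 and 0 in replicate 2. Cox7b2, also known from testis, had 0 counts in both. A count of 3, the floor that a count of 0 allows, would be 0.207 and 0.224 TPM for Cox7b2. Cox7b, at 250 and 256 TPM, was therefore at least 1208-fold higher in replicate 1 and at least 1141-fold higher in replicate 2. Ndufa4 exceeded Ndufa4l2, a gene known to respond to low oxygen, 39.0-fold and 43.0-fold. Pericyte and smooth muscle cells are known to express Cox4i2 and Ndufa4l2, and their 5 markers summed to 36.4 and 41.9 TPM, led by Acta2 at 24.1 ± 2.67 TPM. The part of these cells in the levels of Cox4i2 and Ndufa4l2 was not tested. The 2 lung markers were listed at 0 in both libraries.

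**Figure D2:**
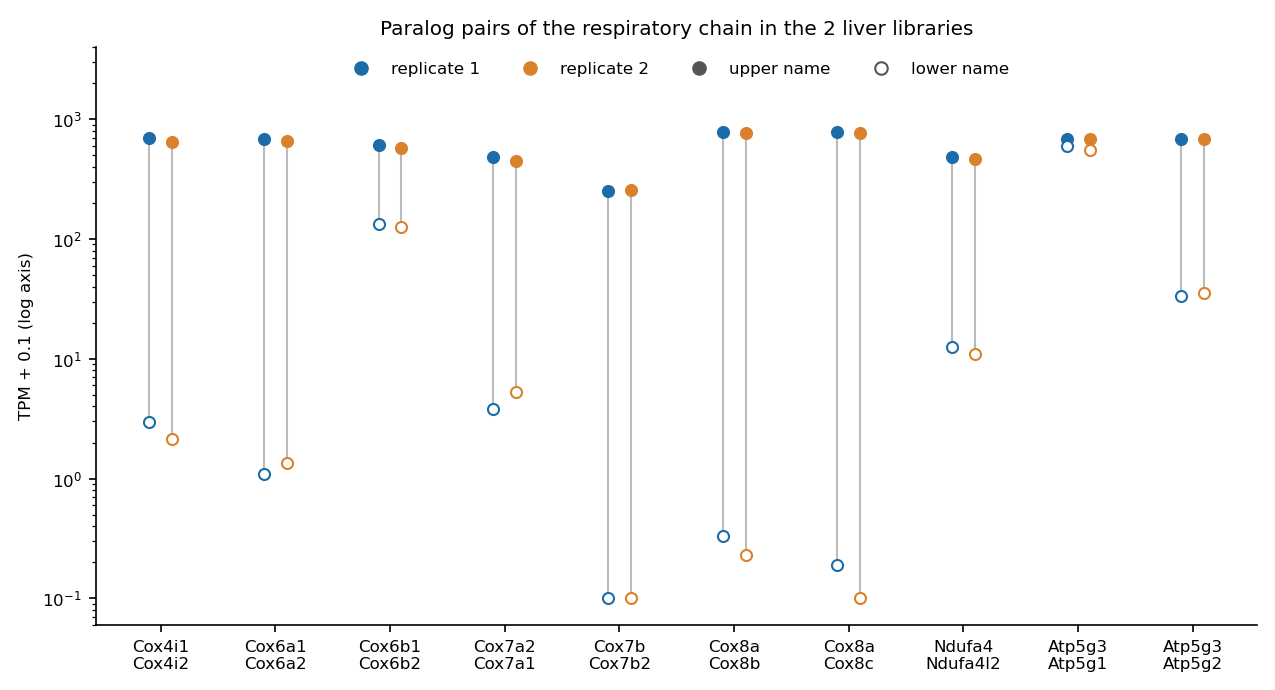
Paralog pairs as TPM + 0.1 on a log axis, with the upper name of each pair as filled and the lower name as open circles, replicate 1 blue and replicate 2 orange. Cox6b2 at 133 and 127 TPM lies far closer to its partner than the other minor complex IV forms, which are all at 5.17 TPM or below.

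Cox6b2 was the exception. Cox6b1, the form of most tissues, stood at 614 and 578 TPM, and Cox6b2, described as the testis form, at 133 and 127 TPM from 1764 and 1536 counts. Cox6b2 made up 17.9% ± 0.099 of the pair, and Cox6b1 was 4.58 ± 0.031 times higher. Exact 95% intervals of that ratio were 4.37 to 4.84 and 4.32 to 4.81. The deposited posterior SD of the Cox6b2 count was 0 in both libraries, and none of its 50-base words was found in a pseudogene transcript. Male germ line markers were near 0, with Tnp1 listed at 0 in both libraries, Prm1 at 0.080 and 0 TPM, Dazl at 0.250 and 0.060 TPM and Ddx4 at 0.290 and 0.410 TPM. The gene has 9 annotated transcripts, and the leading 1, Cox6b2-201, took 25.8% and 23.6% of its TPM, with Cox6b2-203 at 19.9% and 19.7%. Transcripts not labelled protein-coding took 18.04% and 17.9%. Of the germ line markers, Ddx4 had 26 and 35 counts and Dazl 6 and 4. The part of germ cells in the Cox6b2 level was not tested.

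Promoter windows of 3 pairs are shown: Cox8a with Cox8b and Cox7a2 with Cox7a1, where the low partner is a heart and muscle form, and Cox6b1 with Cox6b2, the complex IV pair closest in level. Each runs from 250 bases before to 50 after the RefSeq transcription start (GRCm38.p6, the build named mm10 in the files), 5′ to 3′ in the direction of the gene. Capitals mark the motif CCGGAAG, bound by Gabpa, or its reverse complement. The windows lie at chr19:7217567-7217866 (Cox8a, minus strand), chr7:140900397-140900696 (Cox8b, minus), chr7:30626065-30626364 (Cox6b1, minus), chr7:4753045-4753344 (Cox6b2, minus), chr9:79759804-79760103 (Cox7a2, minus) and chr7:30183921-30184220 (Cox7a1, plus).
Cox8a: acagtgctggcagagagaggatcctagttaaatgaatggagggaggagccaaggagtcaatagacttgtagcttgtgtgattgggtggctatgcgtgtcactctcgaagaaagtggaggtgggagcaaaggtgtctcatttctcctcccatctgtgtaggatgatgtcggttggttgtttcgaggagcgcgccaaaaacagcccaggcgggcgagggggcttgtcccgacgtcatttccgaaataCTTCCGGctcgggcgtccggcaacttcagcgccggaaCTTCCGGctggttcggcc
Cox8b: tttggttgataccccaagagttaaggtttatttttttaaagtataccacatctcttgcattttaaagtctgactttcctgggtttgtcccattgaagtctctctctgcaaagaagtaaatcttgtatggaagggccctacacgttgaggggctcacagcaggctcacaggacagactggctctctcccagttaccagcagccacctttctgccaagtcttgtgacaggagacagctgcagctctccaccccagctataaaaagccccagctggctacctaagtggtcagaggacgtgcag
Cox6b1: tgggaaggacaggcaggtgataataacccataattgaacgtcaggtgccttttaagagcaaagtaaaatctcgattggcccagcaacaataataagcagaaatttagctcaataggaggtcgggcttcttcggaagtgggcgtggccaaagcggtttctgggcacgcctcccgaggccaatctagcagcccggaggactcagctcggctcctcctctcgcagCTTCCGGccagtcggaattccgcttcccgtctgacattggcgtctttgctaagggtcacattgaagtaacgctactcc
Cox6b2: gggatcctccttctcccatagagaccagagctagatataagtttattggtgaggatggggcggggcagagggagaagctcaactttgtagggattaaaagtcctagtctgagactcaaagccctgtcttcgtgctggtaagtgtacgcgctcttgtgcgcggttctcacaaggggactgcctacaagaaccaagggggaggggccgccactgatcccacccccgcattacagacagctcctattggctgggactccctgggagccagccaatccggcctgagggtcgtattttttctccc
Cox7a2: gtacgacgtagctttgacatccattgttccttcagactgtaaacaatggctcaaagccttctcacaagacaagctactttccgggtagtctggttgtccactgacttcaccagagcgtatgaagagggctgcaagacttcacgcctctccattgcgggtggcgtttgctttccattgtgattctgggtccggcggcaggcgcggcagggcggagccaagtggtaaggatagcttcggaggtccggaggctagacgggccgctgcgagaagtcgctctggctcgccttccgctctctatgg
Cox7a1: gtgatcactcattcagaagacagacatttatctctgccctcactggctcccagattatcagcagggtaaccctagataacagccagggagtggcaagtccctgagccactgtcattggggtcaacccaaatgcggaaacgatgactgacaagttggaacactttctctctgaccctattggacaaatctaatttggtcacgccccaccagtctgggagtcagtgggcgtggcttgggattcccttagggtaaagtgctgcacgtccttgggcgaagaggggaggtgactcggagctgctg
The motif had 2 matches in the Cox8a window and 1 in that of Cox6b1, and the other 4 held none. Cox7b and Cox7b2, a pair whose windows are not shown, also held none, and their CG dinucleotides are not given here. The windows shown also differed in their number of CG dinucleotides. There were 19 in Cox8a and 2 in Cox8b, 17 in Cox6b1 and 10 in Cox6b2, and 20 in Cox7a2 and 7 in Cox7a1. In each of the 3 pairs shown the more abundant gene had more. The c-ring genes did not keep to that order, with 21 in Atp5g3, 16 in Atp5g1 and 20 in Atp5g2, the lowest of them in TPM. The median was 19 over 73 windows of members, 7 over all 32851 windows and 20 over the 12245 windows of protein-coding genes at 1 TPM or more, so members were close to other expressed genes in this count.

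Gabpa (also called NRF-2), Nrf1 and Yy1 are transcription factors known to bind promoters of respiratory chain genes. RefSeq windows were found for 68 of the 84 symbols, and each was searched on both strands for CCGGAAG (Gabpa), AAGATGGC (Yy1) and the Nrf1 motif of 10 letters with 1 free base. None of the 3 contains another. At least 1 of them was present in 37 of 68 members (54.4%), against 16.4% of all 27025 genes with a window and 33.3% of the protein-coding genes at 1 TPM or more. The Nrf1 motif was present in 17 of 68 members, against 5.19% of all genes with a window and 11.8% of those expressed. The Yy1 motif was present in 10 members (14.7%), against 3.19% and 5.43%. The Gabpa motif was present in 16 members (23.5%), against 9.93% and 20.8%, a share close to that of expressed genes in general. A match is a description of letters and not evidence of binding.

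The motifs were spread unevenly over the complexes. Yy1 matches were in 7 of 32 complex I and 3 of 15 complex V windows and in none of the 3, 5 and 13 windows of complexes II, III and IV. The Nrf1 motif was in 7 of 32, 2 of 3, 1 of 5, 1 of 13 and 6 of 15 windows of complexes I to V. The Gabpa motif was in 4, 2, 2, 3 and 5 of the same windows. Of the 68 members 6 held 2 kinds of motif, namely Ndufs6, Sdhd, Cox6a1, Atp5h, Atp5j and Atp5k, and 31 held none. These counts are small, and no difference between complexes was tested. Of 19 Gabpa matches 15 lay within 60 bases of the start, as did 15 of 24 Nrf1 matches and 9 of 10 Yy1 matches. Positions in the windows of other genes were not counted, so this is not shown to be particular to members. Members with the Gabpa motif had a median of 371 TPM and those without it 224 TPM. The corresponding medians were 291 and 240 TPM for Nrf1 and 282 and 230 TPM for Yy1. The groups with and without a motif differ in their share of each complex. All 3 groups without a motif also held Cox7b2 and Cox8b, both under 1 TPM. The part of the motifs in these levels was not tested.

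**Figure D3:**
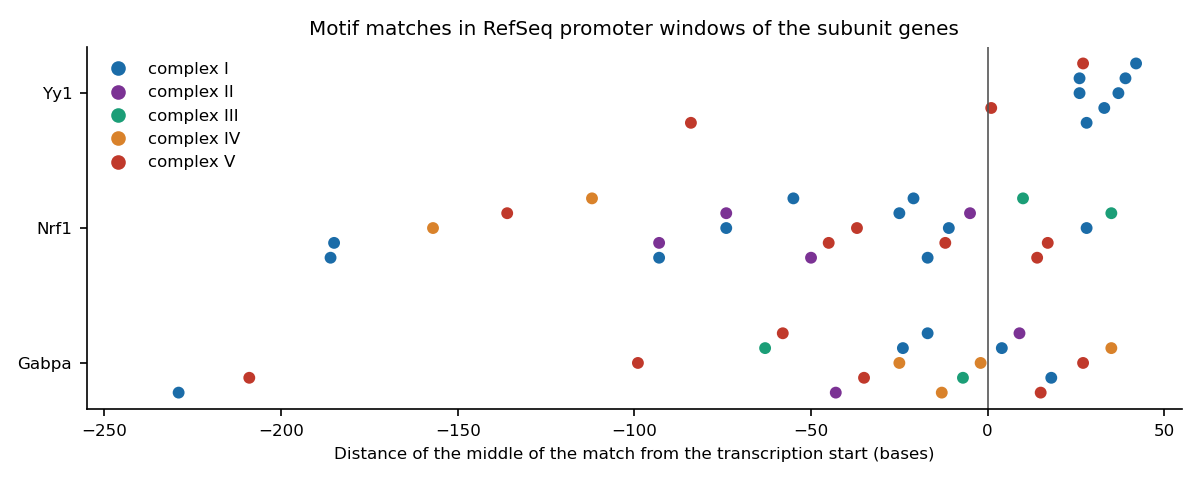
Distance in bases of the middle of each motif match from the RefSeq transcription start, one row per motif and one point per match, coloured by complex. Most Yy1 matches form a cluster after the start, at 26 to 42 bases, whereas Gabpa and Nrf1 matches lie on both sides of it. Positions in the windows of other genes were not counted.

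In 8 of the 10 Yy1 matches, the ATG inside the motif was an annotated start codon of the same gene. The share over other genes with the motif was not counted, so this is not shown to be particular to members. These were Ndufa3, Ndufa9, Ndufb8, Ndufc1, Ndufs4, Ndufs6, Ndufs7 and Atp5j2. Their matches were centred 26 to 42 bases after the transcription start. The 2 others were Atp5f1, whose match was on the opposite strand, and Atp5j, whose match lay 84 bases before the start. Windows of Ndufs7, a core subunit of complex I with a Yy1 match, and of Cox6a1, which holds a Gabpa match and 2 Nrf1 matches, are shown as examples, with the matches in capitals. They lie at chr10:80249199-80249498 (plus strand) and chr5:115348909-115349208 (minus strand).
Ndufs7: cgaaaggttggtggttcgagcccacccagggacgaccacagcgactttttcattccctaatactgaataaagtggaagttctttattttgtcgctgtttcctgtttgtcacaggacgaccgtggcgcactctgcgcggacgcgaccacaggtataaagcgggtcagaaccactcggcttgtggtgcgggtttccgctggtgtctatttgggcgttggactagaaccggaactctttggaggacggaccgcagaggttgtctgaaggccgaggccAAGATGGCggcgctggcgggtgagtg
Cox6a1: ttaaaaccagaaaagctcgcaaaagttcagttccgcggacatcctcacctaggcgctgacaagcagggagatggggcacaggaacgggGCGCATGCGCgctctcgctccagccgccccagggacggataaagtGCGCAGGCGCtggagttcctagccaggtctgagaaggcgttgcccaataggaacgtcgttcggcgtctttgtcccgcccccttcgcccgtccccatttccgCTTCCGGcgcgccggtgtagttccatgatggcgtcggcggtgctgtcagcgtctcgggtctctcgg
Transcripts of all 3 factors were present. Nrf1 stood at 47.5 ± 1.78 TPM, Gabpa at 21.9 ± 0.042 TPM with its partner Gabpb1 at 29.9 ± 0.594 TPM, and Yy1 at 11.6 ± 0.856 TPM.

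Some members lay beside a gene of the opposite direction. A protein-coding gene starting on the opposite strand within 1000 bases upstream, a divergent neighbour, was found for 19 of 81 members at 1 TPM or more (23.5%), against 10.6% of all protein-coding genes at that level. The median gap between the 2 starts was 99 bases. None of the neighbours was itself a member, and 11 of the 19 reached 10 TPM. Among them were Rps28, a ribosomal protein gene, 10 bases from Ndufa7 and at 588 TPM, and Timm8b, an import chaperone of mitochondria, 98 bases from Sdhd and at 195.3 TPM. Others were silent or nearly so, such as Morn5, 52 bases from Ndufa8, at 0.075 TPM. Members lay on 19 chromosomes, with 3 on X.

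The 2 libraries gave nearly the same levels. After scaling with edgeR's TMM factors, none of the 81 members with a mean of at least 10 counts differed more than 1.5-fold, against 8.91% of all 17343 annotated genes with that mean count. Most members have high counts. Among genes with a mean of 1000 counts or more, 0 of 74 members passed 1.5-fold, and so did 0.0315% of 6342 annotated genes, so the count of 0 is close to that of other deeply covered genes. The ratios of replicate 2 to replicate 1 ran from -0.48 for Cox4i2 to 0.46 for Cox7a1 on the log2 scale, both from few counts. Among the 74 well-covered members they ran from -0.15 for Ndufs8 to 0.16 for Ndufb3. The median over the 81 members was -0.036.

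Many members have processed pseudogenes, copies of the spliced RNA that were inserted elsewhere in the genome, and reads from the shared sequence cannot be placed by sequence alone. Of the 85 members, 35 shared at least 1 word of 50 bases with the annotated transcript of a pseudogene, and 73 such pseudogenes were found. Of these, 56 had under 10 counts in both libraries and 4 had at least 1000 counts in both. The posterior SD of the count, the uncertainty that the authors' quantification gives for the division of reads, was over 5% of the count in both libraries for 1 of 78 members with a mean of at least 100 counts. The background was 1.31% of 11439 protein-coding genes. That member was Atp5g2, at 8.88% and 8.76%. Next came Ndufb4 at 2.49% and 2.82%, Atp5l at 1.43% and 1.32%, Atp5g1 at 1.14% and 1.47% and Cox7c at 0.707% and 0.715%, and Ndufs5 was at 0.256% and 0.275%.

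The copies of these 5 genes were nearly perfect over the coding sequence. The annotated copy matched every coding base for Ndufb4 (387 bases, copy Ndufb4c), Atp5g2 (438 bases, copy Gm10175), Atp5l (309 bases, copy Gm10221) and Cox7c (189 bases, copy Gm12338). For Atp5g1 it matched 407 of 408 bases (copy Gm10039). Read from the aligned start codon, each copy held no stop codon before the end of the gene's frame, with 129, 146, 103, 63 and 136 codons for Ndufb4c, Gm10175, Gm10221, Gm12338 and Gm10039. The only difference was G385A in Gm10039, counted from the A of the Atp5g1 start codon. It is shown in capitals in coding bases 268 to 387 of both, since reads that lie wholly within the coding sequence and miss this base match both.
Atp5g1: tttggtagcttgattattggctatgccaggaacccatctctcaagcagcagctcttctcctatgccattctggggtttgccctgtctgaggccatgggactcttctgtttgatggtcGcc
Gm10039: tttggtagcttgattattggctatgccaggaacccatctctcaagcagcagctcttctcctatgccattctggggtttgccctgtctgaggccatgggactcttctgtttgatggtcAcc
The first 120 coding bases of Ndufb4 are shown as the opposite case, where copy and gene are the same throughout.
Ndufb4: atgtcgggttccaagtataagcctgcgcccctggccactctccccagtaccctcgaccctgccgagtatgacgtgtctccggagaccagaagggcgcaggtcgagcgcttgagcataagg

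Copies took most of the reads in 2 pairs. Ndufb4c, on the minus strand at chr15:73809507-73809896 (mm10), had 2417 and 2265 counts and Ndufb4 had 776 and 685. The gene thus held 23.8% ± 0.772 of the pair's counts. In TPM, Ndufb4c stood at 254 and 257 and Ndufb4 at 47.5 and 43.8, so the low rank of Ndufb4 in complex I rests on this division. Gm10175, at chr7:23946646-23947290 (minus strand), had 4438 and 3959 counts, and Atp5g2 had 679 and 668, or 13.8% ± 0.828 of the pair. In the other 3 pairs the gene held most, at 80.6% ± 0.470 for Cox7c, 84.5% ± 3.18 for Atp5l and 86.3% ± 1.71 for Atp5g1. The short copy Gm12338 of Cox7c nevertheless reached 527 ± 19.3 TPM. Cox7c itself stood at 456 and 499 TPM.

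**Figure D4:**
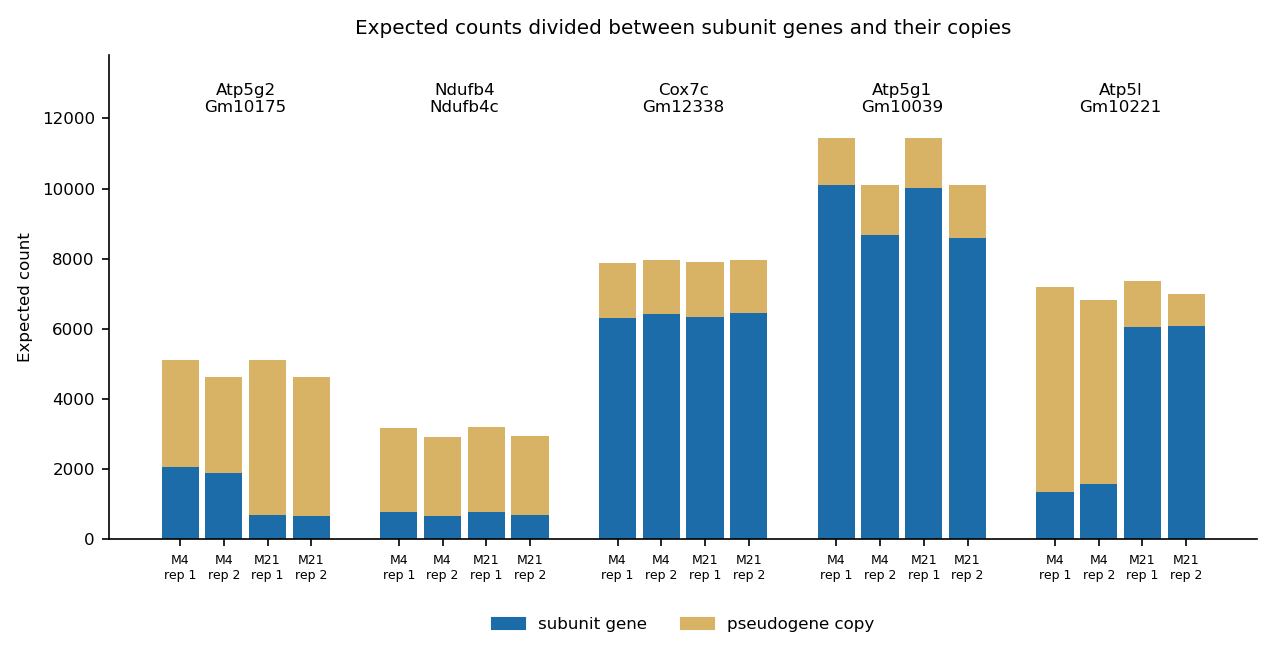
Expected counts of 5 subunit genes (blue) stacked under their copies (tan), for each library under GENCODE M4 and M21. Each stack keeps its height between annotations, while the blue part of Atp5g2 shrinks and that of Atp5l grows under M21.

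The same libraries had also been quantified with the older annotation GENCODE M4, and 81 members could be compared. TPM + 1 differed more than 1.5-fold in the same direction in both libraries for 4 of them, against 5.51% of 13235 genes of all kinds. Ndufa11, a membrane-arm subunit of complex I, stood at 42.7 and 40.1 TPM under M4 and 237 and 221 TPM under M21. Its counts were almost the same, 3443 and 3456 in replicate 1, and its effective length fell from 2562 to 447 bases. Ndufs4, an accessory subunit whose loss is known to cause complex I deficiency, went from 54.6 and 56.3 TPM to 135 and 137 TPM. Its counts changed 1.02 ± 0.002-fold and its effective length fell to 0.400 ± 0.0046 of the M4 value. In these 2 genes the effective length changed and the counts stayed nearly the same.

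In the other 2 genes the reads moved between gene and copy. Atp5l, a membrane subunit of complex V, went from 104 and 132 TPM under M4 to 439 and 462 TPM under M21. Its counts went from 1351 to 6066 in replicate 1, while those of Gm10221 went from 5843 to 1309. Atp5g2 went from 104 and 103 TPM to 33.2 and 35.3 TPM, with counts from 2057 to 679 in replicate 1 and from 3055 to 4438 for Gm10175. The sum of gene and copy changed 1.03 ± 0.0019-fold for Atp5l and 1.001 ± 0.00007-fold for Atp5g2. Under M4 both genes thus lay slightly above 100 TPM. The remaining 77 members ran from -0.35 for Cox6b1 to 0.73 for Atp5s on the log2 scale (M21 over M4), with Cox7a2 at 0.49. Atp5s passed 1.5-fold in replicate 1 only.

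**Figure D5:**
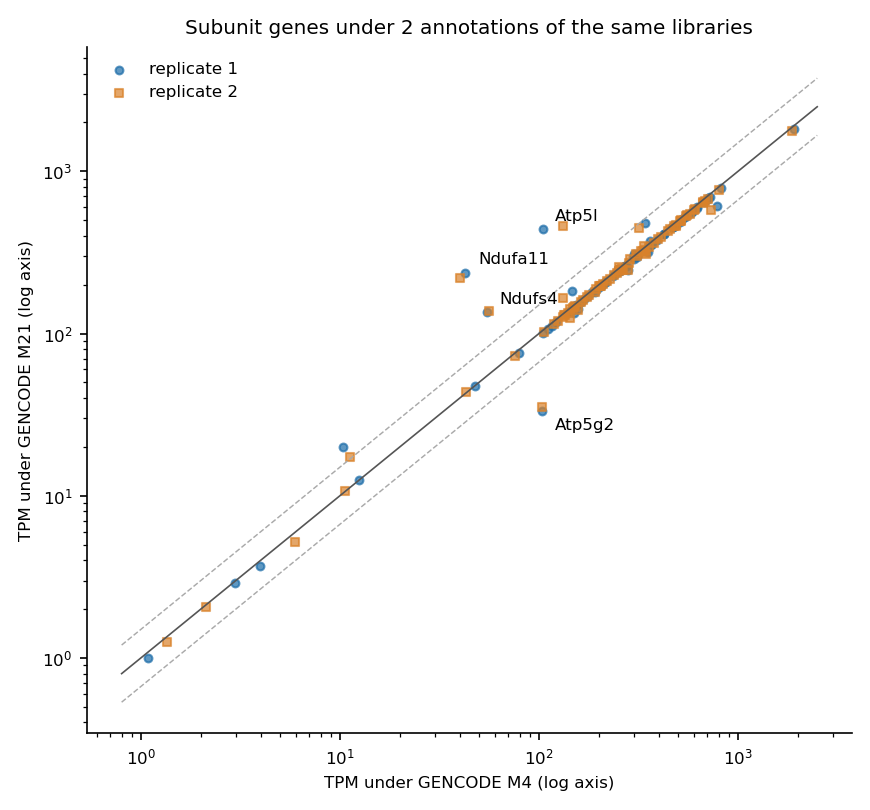
TPM of 81 members under GENCODE M4 (horizontal) and M21 (vertical), both on log axes, with replicate 1 as circles and replicate 2 as squares, a solid line at equality and dashed lines at 1.5-fold. Ndufa11, Atp5l and Ndufs4 lie above the upper dashed line and Atp5g2 below the lower one.

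Most members used 1 main transcript. Of 72 members with more than 1 annotated transcript and at least 1 TPM, 49 had a leading transcript with 80% or more of the gene's TPM in both libraries, against 33.3% of 10919 protein-coding genes. The leader was under 50% in both libraries for 5 members, Cox6b2, Ndufa10, Ndufs4, Ndufb5 and Atp5s. That of Ndufa10 was Ndufa10-204, with a retained intron, at 28.6% and 28.8%. Those of Ndufb5 and Atp5s were protein-coding, at 46.1% and 45.5% and at 42.4% and 35.7%. For Ndufv3, whose long form is known to contain an extra exon, the short transcript of 493 bases took 92.4% and 92.2% and the long one of 1582 bases took 6.69% and 6.82%. Leading transcripts not labelled protein-coding were found for 9 of 81 members. No share over all protein-coding genes was counted for such leaders or for those under 50%, so neither count is shown to be particular to members. Ndufa5-204, a processed transcript in the annotation, took 92.9% and 93.4% of Ndufa5. The leader of Ndufb4 was Ndufb4-202, with a retained intron, at 73.2% and 70.0%, and that of Ndufs4 was Ndufs4-202, a target of nonsense-mediated decay by annotation, at 37.3% and 30.6%. The others were Ndufa3, Ndufa10, Cox5b, Cox7a2, Atp5f1 and Atp5j. Shares of overlapping transcripts rest on the authors' division of reads, so such leaders are uncertain.

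The symbol rule left out 5 further nuclear genes of the chain. Atpif1, an inhibitor of the ATP synthase, stood at 1677 and 1723 TPM, next to Atp5b. Usmg5, a small subunit of complex V, stood at 837 and 823 TPM, Ndufab1, the acyl carrier protein of complex I, at 515 and 470 TPM and Cyc1, cytochrome c1 of complex III, at 285 and 276 TPM. Cycs, cytochrome c itself, was lower at 53.0 and 52.7 TPM. The rule also matched 12 genes that are not protein-coding, 11 of them processed pseudogenes, and 9 of the 12 were under 1 TPM. The exceptions were Ndufb4c, Ndufb1-ps at 194.9 and 190.4 TPM and Cox6c2 at 7.86 and 11.02 TPM. Ndufb1-ps is annotated as a non-coding RNA from a bidirectional promoter.

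The 13 subunit genes of mitochondrial DNA were mostly higher than the nuclear ones. Their median was 775 ± 68.4 TPM, and 12 of 13 were at 100 TPM or more. mt-Atp6, of complex V, stood at 4379 and 4380 TPM and mt-Atp8, also of complex V, at 3194 and 3373 TPM. mt-Nd1, of complex I, came next at 1725 and 1672 TPM. The lowest were mt-Nd3 at 216 and 172 TPM and mt-Nd4l. The latter, whose reading frame overlaps that of mt-Nd4, was listed at 0 in replicate 1 and at 74.2 TPM in replicate 2.

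Assembly factors help build the complexes without remaining in them. All 55 genes of a list of such factors were matched, and 45 reached 10 TPM, against 32.1% of protein-coding genes. Their median was 34.0 ± 0.276 TPM, far below the subunits. The highest were Cox17, a copper chaperone of complex IV, at 339 and 348 TPM, Uqcc2, of complex III, at 219 and 212 TPM and Coa3, of complex IV, at 121 and 125 TPM. The lowest were Pet117, listed at 0 and at 0.620 TPM, and Sdhaf3 at 2.92 ± 0.297 TPM.

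Among 16 regulators of mitochondrial genes, 12 reached 10 TPM, against 32.1% of protein-coding genes. The highest were Chchd2 at 517 ± 13.7 TPM, the mitochondrial protease Lonp1 at 53.2 ± 2.32 TPM and Nrf1. The lowest were the coactivators Ppargc1a at 2.08 and 1.88 TPM and Ppargc1b at 1.99 and 2.17 TPM. Pprc1, their relative, stood at 29.2 and 30.1 TPM. The nuclear receptors Ppara and Esrra were at 4.74 ± 0.014 and 5.55 ± 0.134 TPM. Tfam, which packages and transcribes mitochondrial DNA, stood at 46.3 ± 5.14 TPM.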

How the data were processed

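The 2 libraries form 1 group of biological replicates per the labels, each from pooled embryos, so SD values measure the spread between 2 pools and may include technical spread. The expected counts were deposited by the authors and share ambiguous reads between genes, so they need not be whole. The TPM values, also deposited by the authors, are per effective length with a fixed total over all entries, spike-ins included (4.99% and 5.40% of TPM). The posterior SD of the count and the posterior mean TPM are further values as deposited. The mm10 assembly and the annotations GENCODE M4 and M21 come from the notes deposited with each library. The quantifier, its version and its use of strand were not given in the sources used here. Reads of overlapping genes on opposite strands may therefore be mixed, which concerns 23 members.

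The symbol rule and the gene lists were set with earlier results of these data known, although the rule itself uses no measured value. Genes were named by rule, taking for each complex the 3 highest and 2 lowest, all paralogs, all genes past a threshold, and 3 highest and 2 lowest of each list. Some values of single genes are not reported here. Genes named beside motif, start codon, neighbour and Ndufv3 transcript values, and further core subunits, were chosen after their values were seen. Library ratios used edgeR 4.0.16 TMM factors over annotated genes with a prior count of 0.5, on expected counts rounded to estimate the factors, and the step was tested on simulated data. Entries with bare numbers as identifiers (26248, 0.00118% and 0.00117% of TPM) and spike-ins stayed out of library sizes. Exact 95% binomial intervals of paralog ratios and Poisson intervals of counts cover counting error only. Words of 50 bases were compared over all M21 transcripts. Also tried were scaling by total, by spike-ins and by size factors of DESeq2 1.42.0, and other filters, pseudocounts, thresholds, rescaled and posterior mean TPM, M4 and each library alone. RefSeq promoter windows carry the build GRCm38.p6 and were matched by Entrez gene number. Of the 73 windows of members, 65 end in bases found in a transcript of the same gene.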

Additional observations from a re-analysis of the deposited data

How the results depend on the processing

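No paired analysis was possible because there is one group. Of 108 alternative values over 20 results, 81 kept within the spread or within 1.5 times the count, 27 moved and 0 reversed. Medians and ratios from 1 library alone always lie within the SD of the 2, so these were bound to be kept. Only a log2 ratio could be labelled reversed, by a change of sign. The order of the complexes V, III, IV, I, II changed in 1 case, without members under 1 TPM, where complex IV rose to 446 TPM and complex V to 434 TPM. TPM over annotated genes only gave medians of 207, 193, 386, 323 and 439 TPM for complexes I to V. Posterior mean TPM gave 192 TPM for complex I. M4 gave 190, 380 and 290 TPM for complexes II, III and IV. The mean over members was 203, 195.2 and 455 TPM for complexes I, II and V. With a pseudocount of 1 TPM in place of 0.1, log2 ratios became 7.61 (Cox4i1 to Cox4i2, from 8.05), 8.30 (Cox6a1 to Cox6a2, from 9.10), 7.99 (Cox7b to Cox7b2, from 11.31), 9.36 (Cox8a to Cox8b, from 11.46) and 5.24 (Ndufa4 to Ndufa4l2, from 5.34). Posterior mean TPM gave 10.53 for Cox7b and 10.92 for Cox8a. M4 gave 2.49 for Cox6b1 to Cox6b2 (from 2.19), 6.05 for Cox7a2 to Cox7a1 (from 6.70) and 5.44 for Ndufa4. Ratios to genes with 0 to 2 counts are set by the pseudocount. Spike-in scaling shifted all ratios by -0.12 on the log2 scale and put 1 member, Cox4i2, past 1.5-fold between libraries, and no filter on counts put 2 there, Cox8b and Cox8c. No member passed a posterior SD of 10%.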
